A study of Homo sapiens with 15 samples.

Results

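HOX genes encode homeodomain transcription factors and lie in 4 clusters, HOXA, HOXB, HOXC and HOXD, each on its own chromosome. Every gene whose symbol is a cluster letter followed by a paralogue number was taken from the deposited expression tables of the renal carcinoma cell lines CAKi-1 and 786O. This gave 37 genes of the 17237 that the tables list between them: 10 of HOXA, 9 of HOXB, 9 of HOXC and 9 of HOXD. All 37 are among the 16296 genes of the CAKi-1 table, and 34 are among the 16188 genes of the 786O table, where HOXC12, HOXC13 and HOXD13 are not listed. The human annotation holds 39 protein-coding HOX genes, and HOXA13 and HOXB1 are not listed for either line. Neither table holds a value of 0 in any of its libraries.

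HOX proteins give cells their position along the body axis of the embryo, and genes of low paralogue number act nearer the head than genes of high number. They bind DNA together with PBX, MEIS and PKNOX proteins, and their clusters are held silent by Polycomb complexes, kept active by MLL complexes and induced from the low-numbered end by retinoic acid. In the kidney, the mouse counterparts of HOXA11, HOXC11 and HOXD11 are needed for the ureteric bud to form, and the adult kidney keeps expressing many HOX genes.

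ANGPTL4 is a secreted protein best known as an inhibitor of lipoprotein lipase, and the series asks what its loss does to the RNA of clear cell renal carcinoma cells. CAKi-1 has wild-type VHL, the ubiquitin ligase subunit that marks hypoxia-inducible factors for destruction, and 786O has mutant VHL. CAKi-1 was sequenced in 4 WT and 5 A4KO libraries and 786O in 3 WT and 3 A4KO libraries, all from poly(A)-selected RNA, 15 in total. A4KO cells of each line are combined clones that had lost ANGPTL4 after Cas9 protein and 1 guide RNA were introduced (the labels write Caspase 9). WT cells are combined clones from the same procedure without loss, by the series description, whereas the paper's methods treat CAKi-1 WT cells as parental. Growth medium is RPMI in the labels and DMEM in the paper. What a replicate is (a culture, a passage, a clone pool) is not stated, so each p below measures only the spread between these samples. Values are taken as TPM (the tables name no unit), a transcript's share of the library's RNA, which are per transcript length. The paper states the depth of sequencing per sample, and the number of reads behind each value is not in the tables.

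ANGPTL4 itself was at 74.9, 83.2, 86.9 and 71.7 TPM in CAKi-1 WT replicates 1 to 4 and at 7.26, 2.87, 2.87, 6.47 and 2.9 TPM in A4KO replicates 1 to 5. In 786O it was at 20.6, 17.6 and 18.1 TPM in WT and 2.19, 2.17 and 1.86 TPM in A4KO replicates 1 to 3. Every A4KO library lay below every WT library of its line, and the log2 fold change was -3.96 in CAKi-1 (adjusted p = 1.20e-05) and -2.69 in 786O (adjusted p = 1.57e-06). CAKi-1 A4KO replicates 1 and 4 stand apart from replicates 2, 3 and 5. Over all genes of the table, the mean absolute difference on the log2 scale was 0.124 between replicates 1 and 4, 0.122 to 0.141 among replicates 2, 3 and 5, and 0.239 to 0.278 between these sets. ANGPTL4 was also higher in replicates 1 and 4 than in the other A4KO libraries. CAKi-1 results are therefore given with all 5 A4KO libraries and, where they rest on this, without replicates 1 and 4.

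The strand protocol of the libraries is not stated, and RNA of one gene may be counted for another where their exons share bases. Of the 37 HOX genes, 19 share exon bases with a non-coding RNA of the opposite strand, among them HOXA7 (62.5% of its exon bases), HOXA6 (39.3%) and HOXA11 (27.2%), and 8 share exon bases with another HOX gene on the same strand. Of 20 non-coding RNAs of the clusters that were looked up, such as HOTAIR, HOTTIP and HOXA11-AS, 0 are listed in either table, so no value for them can be set beside the HOX genes. The cells were sequenced in bulk, so fewer cells expressing a gene and less RNA per cell cannot be told apart.

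In WT cells both lines expressed HOX genes from all 4 clusters. In CAKi-1, HOXA3, which patterns the pharyngeal arches and their glands, was at 53.8 ± 6.04 TPM (mean ± SD, n = 4), HOXB6 at 53.2 ± 6.0, HOXA9, a regulator of blood stem cells, at 44.7 ± 2.01 and HOXB7 at 43.1 ± 2.48. Neighbours in this order of 4 genes overlapped in their ranges over libraries. Within each WT library, however, HOXA3 and HOXB6 lay above HOXA9 and HOXB7, and HOXA3 lay above HOXB6 by a small margin. The order of HOXA9 and HOXB7 differed between libraries and is not resolved. HOXB7 lay above HOXB2 (35.5 ± 1.78 TPM) in every WT library, with no overlap. In 786O the top of the order was resolved: HOXA9 was at 165 ± 4.96 TPM (n = 3), HOXA3 at 98.9 ± 2.57 and HOXA10, which acts in the uterus and hindlimb, at 70.3 ± 4.93, with no overlap between neighbours. HOXB6 (42.6 ± 1.21 TPM), HOXB7 (41.1 ± 1.98 TPM) and HOXB2 (40 ± 0.832 TPM) came next and overlapped.

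A WT mean of at least 10 TPM was reached by 16 HOX genes of 37 in CAKi-1 and by 24 of 34 in 786O. Means under 1 TPM were found for 5 genes in CAKi-1 (HOXD1, HOXD13, HOXD12, HOXC5 and HOXC12) and for 2 in 786O (HOXC5 and HOXD12). The median WT mean was 7.76 TPM over the HOX genes of CAKi-1 and 11.8 TPM over those of 786O, beside 10.5 and 12.3 TPM over all genes of the tables. Each line has its own table, and whether the tables were scaled together is not stated. WT levels of the lines are therefore set side by side here with no test. HOXC8, a thoracic patterning gene, was at 19.3 ± 0.885 TPM in CAKi-1 and 2.55 ± 0.0184 TPM in 786O. The opposite held for HOXA9, for HOXA2 (1.93 ± 0.276 TPM in CAKi-1 and 10.4 ± 0.697 TPM in 786O), a hindbrain and branchial arch gene, and for HOXD10 (5.74 ± 0.50 and 36.3 ± 2.92 TPM), a gene of the lower spine and hindlimb. In the plot of WT levels by paralogue number, most of HOXA and HOXD9 to HOXD11 lie higher in 786O.

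**Figure D1:**
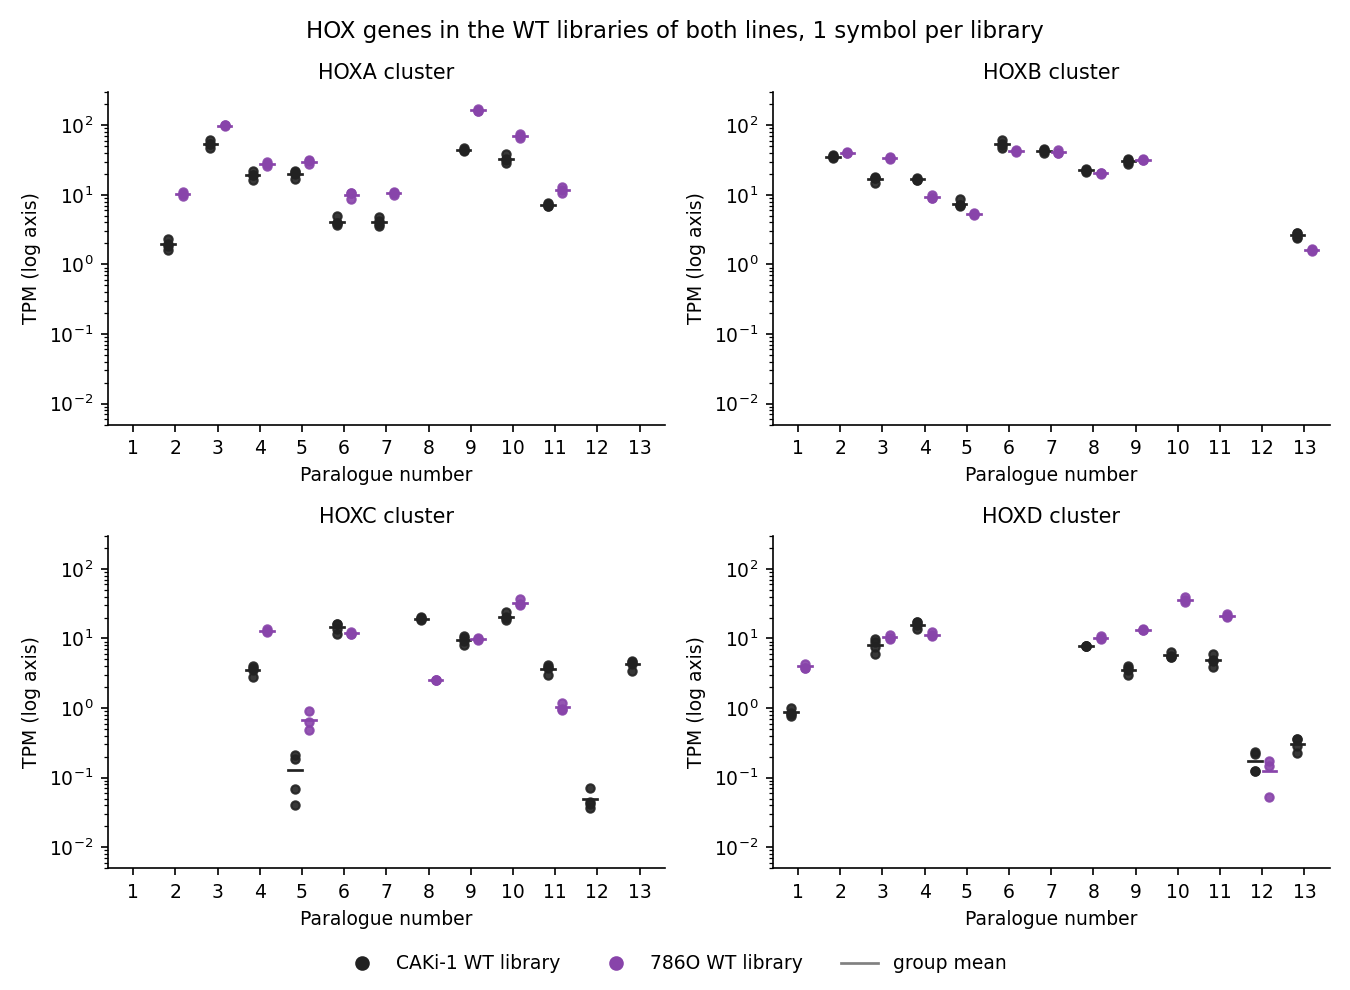
TPM (log axis) of HOX genes in each WT library of CAKi-1 (black, 4 libraries) and 786O (purple, 3 libraries) by paralogue number, with 1 panel per cluster and a bar at each mean. HOXA9 has the highest mean in 786O (165 TPM) and HOXA3 in CAKi-1 (53.8 TPM).

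Summed over a cluster, the HOXB genes of CAKi-1 reached 242, 232, 225 and 216 TPM in WT replicates 1 to 4 and 109.5, 101, 92.7, 119 and 87.9 TPM in A4KO replicates 1 to 5. The groups do not overlap, and the mean went from 229 ± 10.8 to 102 ± 12.4 TPM (mean ± SD). HOXC sums of CAKi-1 were also lower in every A4KO library, at 75.6 ± 6.34 TPM in WT and 46.4 ± 4.28 TPM in A4KO cells. HOXD sums overlapped (47.3 ± 1.7 and 46.8 ± 2.75 TPM). HOXA sums were 215, 195, 194 and 174 TPM in WT and 251, 181, 179, 242 and 171 TPM in A4KO libraries, so replicates 1 and 4 lay above every WT library and the others inside or just below the WT range. HOXB gave 41.9% of the summed HOX TPM in CAKi-1 WT and 25.6% in A4KO libraries, and HOXA 35.6% and 50.9%.

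In 786O the sums of all 4 clusters were lower in every A4KO library than in every WT library. HOXA went from 439.9 ± 11.1 to 417 ± 5.38 TPM, HOXB from 226 ± 1.45 to 189 ± 3.99, HOXC from 71.5 ± 4.65 to 47.3 ± 1.61 and HOXD from 107 ± 3.86 to 76 ± 0.255 TPM. No test was run on these sums, and each is carried by its few most abundant genes. In the plot of cluster sums, the gap between genotypes is widest for HOXB in CAKi-1.

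**Figure D2:**
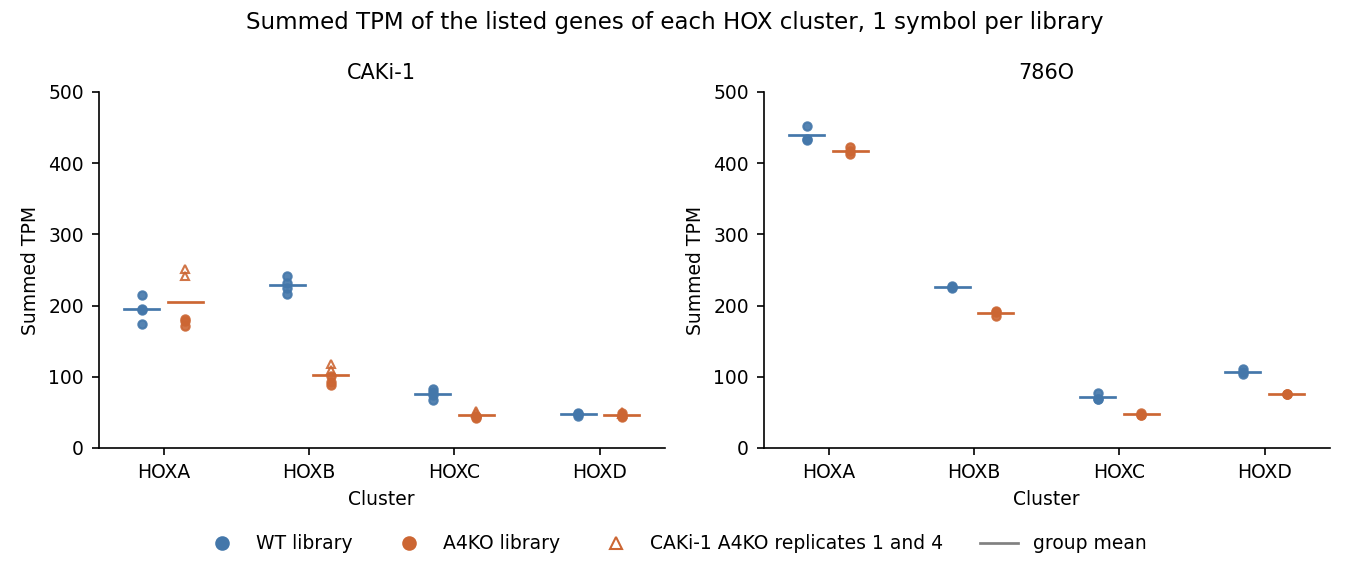
Summed TPM of the listed genes of each HOX cluster in every library of CAKi-1 (left) and 786O (right), with WT in blue, A4KO in orange, open triangles for CAKi-1 A4KO replicates 1 and 4, and a bar at each group mean. HOXB sums of CAKi-1 fill 216 to 242 TPM in WT and 87.9 to 119 TPM in A4KO libraries.

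Within CAKi-1, loss of ANGPTL4 went with lower RNA of a run of neighbouring HOXB genes. HOXB8, HOXB6, HOXB5 and HOXB9 were 6.07-, 4.01-, 3.97- and 2.36-fold lower in mean TPM, and HOXB7 2.01-fold lower. The fold change used for testing is the difference of mean log2(TPM + 1), which understates changes of genes near 1 TPM. By the study's rule (adjusted p up to 0.05 and a log2 fold change of 1 or more in size), 4 of 37 HOX genes were lower (10.8%), beside 1.12% of all genes, and 0 of 37 were higher by limma, beside 2.21% of all genes. Over all genes of CAKi-1 this fit called 360 higher and 183 lower. That is fewer than the paper states for the same rule, so these counts are of this fit only, and the cause of the gap was not tested. By adjusted p of at most 0.05 alone, which is what "rose" and "fell" mean for single genes here, 15 of 37 fell (40.5%), beside 21.1% of all genes, and 4 rose (10.8%), beside 17.9% of all genes. At an unadjusted p under 0.05 the counts were 16 lower and 4 higher. The median log2 fold change was -0.18 over the HOX genes and -0.01 over all genes. Without A4KO replicates 1 and 4, 17 fell and 4 rose, 14 of the 15 that fell with all libraries remained, the study's rule called 5, and the median was -0.22. Of all 16296 genes, 3613 fell and 2714 rose in that fit, the study's rule called 151 lower and 261 higher, and the median was -0.02.

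HOXB8, which holds myeloid progenitors immature when overexpressed, was at 23.5, 22.8, 21.7 and 21.5 TPM in WT and 4.86, 3.38, 2.79, 4.97 and 2.43 TPM in A4KO libraries (log2 fold change -2.35, adjusted p = 1.87e-05). Its WT libraries all lay above 20 TPM and its A4KO libraries all under 5 TPM, with replicates 1 and 4 the highest of these. HOXB6, a gene expressed in erythroid progenitors, was at 61.1, 52.8, 52.4 and 46.5 TPM in WT and 13.1, 13.2, 10.6, 18.8 and 10.6 TPM in A4KO libraries (-1.95, adjusted p = 3.38e-05). The highest A4KO library, replicate 4, was well under the lowest WT library. For HOXB5, an inducer of the VEGF receptor in endothelial precursors, WT libraries held 8.63, 7.03, 6.86 and 7.07 TPM and A4KO libraries 2.17, 1.75, 1.41, 2.33 and 1.66 TPM (-1.56, adjusted p = 1.64e-05). WT replicate 1 stood above the other WT libraries, and no A4KO library came near any of them. HOXB9, which patterns the ribs, was at 32.9, 32.1, 30 and 27.5 TPM in WT and 14.5, 12.6, 11.7, 15.5 and 10.7 TPM in A4KO libraries (-1.19, adjusted p = 6.20e-05). Again the groups were separate, with A4KO replicates 1 and 4 nearest to WT. Without those replicates the log2 fold changes were -2.60 for HOXB8, -2.12 for HOXB6, -1.69 for HOXB5 and -1.32 for HOXB9.

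HOXB7, an activator of FGF2 in melanoma cells, was at 43.9, 46.1, 40.4 and 42.1 TPM in WT and 22.1, 23.2, 20.7, 22.7 and 18.4 TPM in A4KO libraries. Every A4KO library lay below every WT library, and the log2 fold change of -0.98 (adjusted p = 2.58e-05) missed the study's fold threshold, which was reached without WT replicate 3 (-1.01), A4KO replicate 2 (-1.01) or A4KO replicate 4 (-1.001), and without replicates 1 and 4 (-1.02). With log2(TPM + 0.1) the study's rule called 6 HOX genes of CAKi-1, HOXB7 and HOXC8 added. HOXB5 to HOXB9 lie next to each other within 42.3 kb of chromosome 17, in a HOXB cluster of 200.2 kb, and were grouped after their values were seen. Their summed level was 170.1, 161, 151 and 145 TPM in WT replicates 1 to 4 and 56.6, 54.2, 47.2, 64.3 and 43.9 TPM in A4KO replicates 1 to 5. HOXB4, known for expanding blood stem cells, HOXB2, a hindbrain gene, and HOXB3 also fell, by smaller steps: 1.54-fold for HOXB4 (-0.58, adjusted p = 3.33e-05), 1.51-fold for HOXB2 (-0.58, adjusted p = 1.62e-04) and 1.5-fold for HOXB3 (-0.56, adjusted p = 0.0105), each with separate groups. HOXB13, a prostate lineage factor that binds with the androgen receptor, lies 91.2 kb from HOXB7 and did not pass: it was at 2.78, 2.5, 2.43 and 2.86 TPM in WT and 3.3, 2.86, 2.61, 3.48 and 2.63 TPM in A4KO libraries (adjusted p = 0.254). These groups overlapped. Over the HOXB cluster of CAKi-1, 8 of 9 genes fell and 0 rose by limma (0 at an unadjusted p under 0.05 as well), with a median log2 fold change of -0.98, beside 21.1% of all genes that fell and 17.9% that rose.

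Of the HOXC genes of CAKi-1, 4 of 9 fell, beside 21.1% of all genes. By limma 0 rose (0 at an unadjusted p under 0.05), beside 17.9% of all genes. HOXC8 was at 20.2, 19.9, 18.3 and 18.8 TPM in WT and 10.2, 8.96, 9.41, 9.59 and 9.55 TPM in A4KO libraries, 2.02-fold lower (-0.95, adjusted p = 4.69e-06). For HOXC6, a gene active in the mammary gland and prostate, the values were 16.4, 16.2, 13.8 and 11.6 TPM in WT and 7.61, 8.16, 7.35, 8.27 and 5.97 TPM in A4KO libraries (-0.87, adjusted p = 5.12e-04). HOXC10, a gene of lumbar motor neurons, was at 23.9, 19.7, 20.5 and 18.4 TPM in WT and 12.9, 11.1, 9.4, 15.5 and 10.5 TPM in A4KO libraries (-0.76, adjusted p = 0.00212). Groups were separate for all of these, and A4KO replicate 4 was the highest A4KO library of HOXC6 and HOXC10. HOXC11 fell 1.5-fold, from 3.7 ± 0.511 to 2.47 ± 0.196 TPM (adjusted p = 0.00294). HOXC4, HOXC9 and HOXC13, the last needed for hair shafts, overlapped between groups, with log2 fold changes of -0.20, -0.22 and -0.11 (adjusted p = 0.269, 0.0922 and 0.471). HOXC4 passed without A4KO replicate 1 (adjusted p = 0.0457) and without replicates 1 and 4 (0.0269), and HOXC9 passed without WT replicate 4 (0.0431). HOXC5 and HOXC12 were scarce, at no more than 0.267 and 0.0715 TPM in any library, and overlapped.

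Among 10 HOXA genes of CAKi-1, 0 rose by limma (0 at an unadjusted p under 0.05), beside 17.9% of all genes, with a median log2 fold change of 0.05. With 10 genes this count rests on few members. HOXA4 passed with overlapping groups, 21.9, 19.1, 19.4 and 16.4 TPM in WT and 17.3, 15.4, 12.2, 16.2 and 12.5 TPM in A4KO libraries (-0.36, adjusted p = 0.0339). That call is not robust to single libraries: without WT replicate 1, 2 or 3 or A4KO replicate 3 or 5, HOXA4 had an adjusted p of 0.0609 to 0.0966. For HOXA10, A4KO replicates 1 and 4 stood apart, with 38.1, 32.7, 31.4 and 28.7 TPM in WT and 60.3, 35.8, 35.3, 55.3 and 36.2 TPM in A4KO libraries (0.40, adjusted p = 0.104). Those replicates were above every WT library, whereas replicates 2, 3 and 5 lay within the WT range. HOXA11 had the same form (10.3 and 10.8 TPM in replicates 1 and 4, 6.81 to 7.63 TPM in WT; adjusted p = 0.146). HOXA3, HOXA6, HOXA7 and HOXA9 were near 0 in log2 fold change (0.05, 0.04, 0.06 and 0.04) and changed sign without replicates 1 and 4 (-0.12, -0.19, -0.09 and -0.10), never passing the test. HOXA5, a lung and breast gene, did not pass with all libraries (-0.15, adjusted p = 0.469) and was lower without replicates 1 and 4 (-0.38, adjusted p = 0.0209). HOXA2 overlapped between groups (0.07).

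The HOXD cluster held all 4 HOX genes that rose in CAKi-1, of 9 listed, beside 17.9% of all genes. Of its genes 1 fell, beside 21.1% of all genes. HOXD9, a gene of the lumbar spine and limbs, was at 3.73, 2.99, 3.53 and 4.06 TPM in WT and 5.67, 5.61, 4.72, 6.19 and 4.97 TPM in A4KO libraries (0.49, adjusted p = 0.00241). HOXD1, which acts in pain-sensing neurons, was at 0.78, 0.849, 0.835 and 1.01 TPM in WT and 1.97, 1.99, 1.41, 1.32 and 1.09 TPM in A4KO libraries (0.44, adjusted p = 0.0122). Every A4KO library lay above every WT library for both, by a narrow margin for HOXD1. HOXD8 went from 7.76 ± 0.103 to 9.21 ± 0.463 TPM (0.22, adjusted p = 0.00595), and HOXD13, a digit gene, from 0.308 ± 0.0654 to 0.548 ± 0.0315 TPM (0.24, adjusted p = 0.00387). HOXD13 was thus under 1 TPM in every library. HOXD4 fell with overlapping groups (-0.23, adjusted p = 0.0353), and this call ended without WT replicate 1, 2 or 3 or A4KO replicate 1, 3, 4 or 5 (adjusted p 0.0559 to 0.102), and without A4KO replicates 1 and 4 together (0.0999). HOXD3 did not pass (-0.18, adjusted p = 0.269) except without WT replicate 3 (0.0473), nor did HOXD10 (-0.23, adjusted p = 0.253) except without A4KO replicates 1 and 4 (0.0156). HOXD11 and HOXD12 overlapped (-0.08 and 0.06). The CAKi-1 plot of HOX genes shows the widest gaps between genotypes at HOXB8, HOXB6 and HOXB5.

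**Figure D3:**
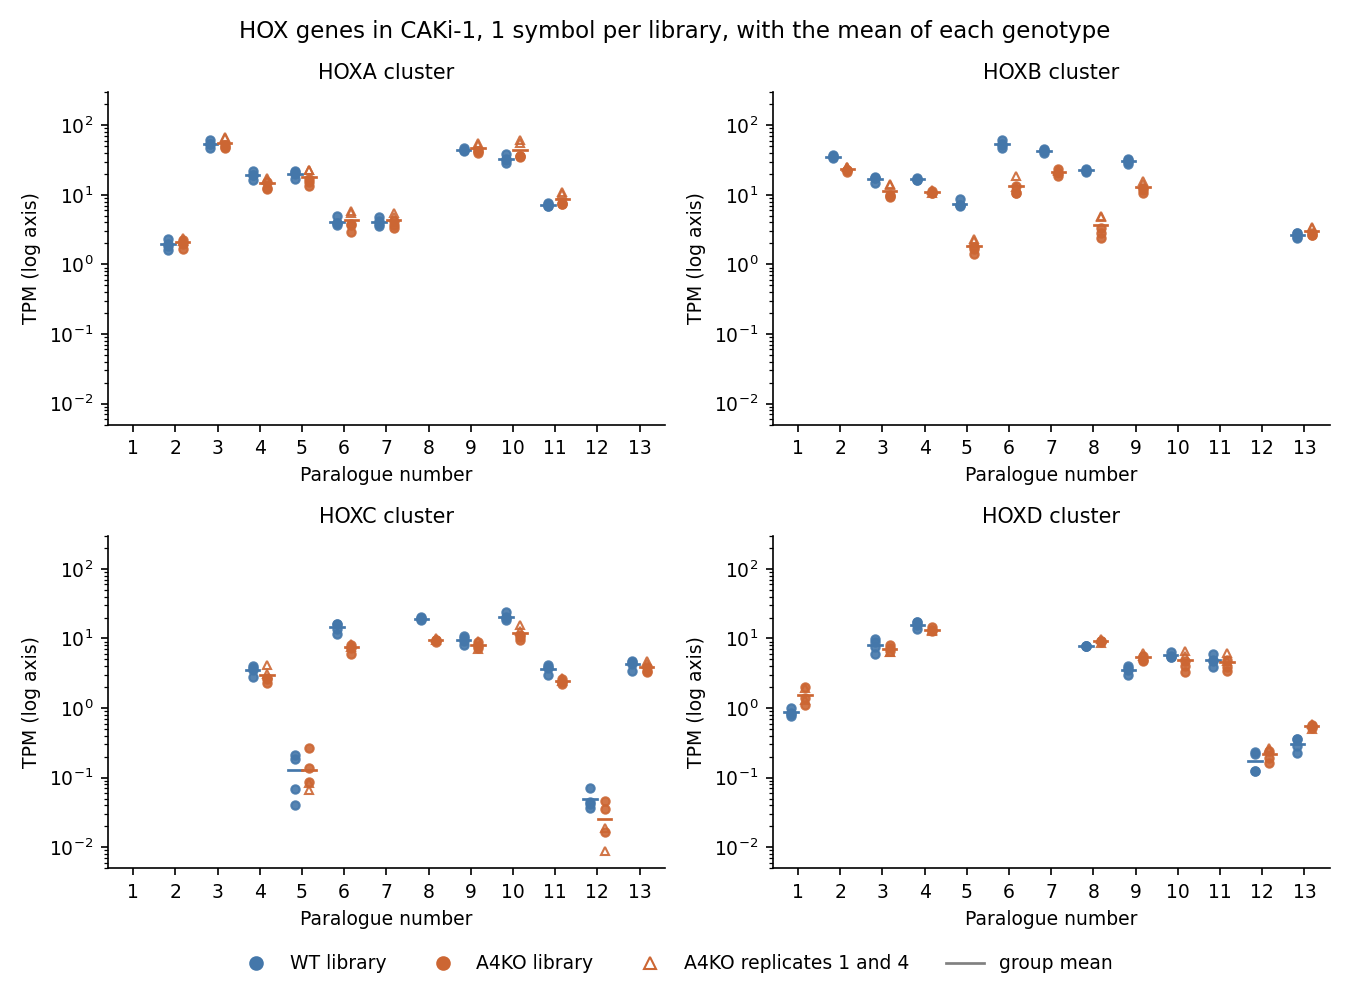
TPM (log axis) of HOX genes in every CAKi-1 library by paralogue number, with 1 panel per cluster, WT (4 libraries) in blue, A4KO (5 libraries) in orange, open triangles for A4KO replicates 1 and 4, and a bar at each group mean. HOXB8 goes from a mean of 22.4 TPM in WT to 3.69 TPM in A4KO libraries, and in HOXA10 the triangles lie above the other libraries.

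In 786O, loss of ANGPTL4 went with lower RNA of HOX genes in all 4 clusters, mostly by less than 2-fold. HOXA7 (6.2-fold), HOXB13 (12.7-fold), HOXC11 (4.11-fold), HOXB3 (2.06-fold) and HOXA6 (2.05-fold) were lower by more in mean TPM, and HOXB7 was 1.5-fold higher. By the study's rule, 3 of 34 HOX genes were lower (8.82%), beside 5.19% of all genes, and 0 of 34 were higher by limma, beside 2.43% of all genes. By adjusted p alone, 22 of 34 fell (64.7%), beside 33.5% of all genes, and 3 rose (8.82%), beside 27.5% of all genes. At an unadjusted p under 0.05 the counts were 24 lower and 3 higher. The median log2 fold change was -0.41 over the HOX genes and -0.03 over all genes. After quantile normalization of the table, 18 fell and 5 rose (HOXA2, HOXA3, HOXB4 and HOXB7 among them), the median was -0.26 over the HOX genes and 0.02 over all genes, and of all genes 5274 rose and 4469 fell, beside 4450 and 5424 before. With log2(TPM + 0.1) the study's rule called 5 genes, HOXA6 and HOXC11 among them. With 3 libraries in each group, an exact permutation test of a single gene cannot go below p = 0.1.

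Among 10 HOXA genes of 786O, 4 fell (40%), beside 33.5% of all genes, and 2 rose (20%), beside 27.5%, with a median log2 fold change of -0.12. These shares are near the background. HOXA7, a gene studied in keratinocyte differentiation, was at 9.98, 10.7 and 11 TPM in WT and 1.41, 1.96 and 1.74 TPM in A4KO libraries (-2.10, adjusted p = 5.38e-06). Its neighbour HOXA6, 3.11 kb away, was at 10.6, 10.7 and 8.71 TPM in WT and 4.35, 5.11 and 5.2 TPM in A4KO libraries (-0.90, adjusted p = 2.98e-04). Both genes had separate groups, and no A4KO library of HOXA7 reached 2 TPM. HOXA9, 4.50 kb on the other side of HOXA7, stayed abundant and overlapped: 170.2, 161 and 162 TPM in WT and 162, 156 and 155 TPM in A4KO libraries (-0.06, adjusted p = 0.24). HOXA11, one of the kidney genes, was at 11.7, 12.8 and 10.6 TPM in WT and 7.09, 7.55 and 6.93 TPM in A4KO libraries (-0.63, adjusted p = 3.84e-04), again with separate groups. HOXA3 rose slightly, from 98.9 ± 2.57 to 110.4 ± 2.26 TPM (adjusted p = 0.012). HOXA2 rose from 10.4 ± 0.697 to 12.1 ± 0.741 TPM (adjusted p = 0.0332), a call that ended without WT replicate 2 or 3 or A4KO replicate 2 or 3 (adjusted p 0.0775 to 0.0941). HOXA4 fell from 27.8 ± 1.63 to 24.7 ± 0.754 TPM (adjusted p = 0.0361), and this ended without WT replicate 2 or 3 or A4KO replicate 1 or 3 (adjusted p 0.0899 to 0.10) and under quantile normalization (0.0924), centring on the median (0.121) and log2(TPM + 0.1) (0.0501). All of these shifts were small, with A4KO libraries of HOXA2 and HOXA3 just above WT and those of HOXA4 just below. HOXA5 and HOXA10 overlapped and did not pass (-0.16 and -0.08), and HOXA5 passed without WT replicate 3 (adjusted p = 0.0196), with the trend and robust options of eBayes (0.0428) and with a minimum mean of 1 TPM (0.0473).

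HOXA6, HOXA7, HOXA9 and HOXA11 thus moved differently within one stretch of chromosome 7, and their promoters are shown for that reason. RefSeq promoters (GRCh38.p14), 300 bases each from 250 before to 50 after a gene's start, were at hand for 18 of the 37 genes, and none of HOXB2 to HOXB13 is among them. All 4 are written from the minus strand, 5′ to 3′, at chr7:27147725-27148024 for HOXA6, chr7:27156626-27156925 for HOXA7, chr7:27165488-27165787 for HOXA9 and chr7:27185183-27185482 for HOXA11. Capitals mark the letters CCAAT or their reverse complement ATTGG.
HOXA6: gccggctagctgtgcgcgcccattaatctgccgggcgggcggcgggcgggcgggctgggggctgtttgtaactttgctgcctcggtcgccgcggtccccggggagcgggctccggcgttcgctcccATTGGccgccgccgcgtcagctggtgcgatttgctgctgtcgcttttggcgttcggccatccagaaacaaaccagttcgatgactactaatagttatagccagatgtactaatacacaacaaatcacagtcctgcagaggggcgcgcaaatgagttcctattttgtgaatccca
HOXA7: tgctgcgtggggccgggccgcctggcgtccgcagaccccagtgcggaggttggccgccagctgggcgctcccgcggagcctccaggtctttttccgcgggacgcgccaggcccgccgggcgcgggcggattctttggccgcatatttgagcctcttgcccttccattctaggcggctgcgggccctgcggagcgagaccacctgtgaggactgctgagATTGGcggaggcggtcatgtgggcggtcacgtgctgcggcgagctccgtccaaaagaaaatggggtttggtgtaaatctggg
HOXA9: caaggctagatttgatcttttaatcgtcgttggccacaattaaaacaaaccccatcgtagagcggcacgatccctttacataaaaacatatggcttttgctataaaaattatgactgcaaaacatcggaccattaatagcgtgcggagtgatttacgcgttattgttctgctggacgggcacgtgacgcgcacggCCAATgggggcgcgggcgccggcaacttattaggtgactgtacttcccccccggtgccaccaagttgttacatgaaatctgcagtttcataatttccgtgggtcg
HOXA11: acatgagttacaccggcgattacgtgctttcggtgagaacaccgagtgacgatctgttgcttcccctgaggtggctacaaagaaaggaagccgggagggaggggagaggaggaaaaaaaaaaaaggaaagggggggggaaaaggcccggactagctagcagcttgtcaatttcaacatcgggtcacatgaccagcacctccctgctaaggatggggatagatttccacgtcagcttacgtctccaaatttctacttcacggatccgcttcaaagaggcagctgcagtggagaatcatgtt

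Each motif was searched on both strands. CCAAT occurs 1 time each in the HOXA6, HOXA7 and HOXA9 windows and 0 times in that of HOXA11. Over all 35116 promoters of the same length 34.6% hold it, and over the 27 HOX promoters of the RefSeq table, HOXA13 and HOXB1 included, 66.7%. TATAAA is in 11.5% of all promoters and 18.5% of HOX promoters, and of the windows shown HOXA9 holds it. GGGCGG is in 45% and 48.1%, with 4 matches in HOXA6, 2 in HOXA7 and none in HOXA9 or HOXA11. TGATTNAT, a form of the site bound by HOX and PBX together, is in 2.82% and 7.41%, and in none of the windows shown. CG dinucleotides numbered 29 in HOXA6, 31 in HOXA7, 22 in HOXA9 and 13 in HOXA11, beside a median of 22 over the promoters of the listed HOX genes and 14 over all promoters. These are matches of letters only. HOXA6 and HOXA7, which fell in 786O, share CCAAT with HOXA9, which did not pass, and HOXA11, which fell too, lacks it.

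HOXB genes of 786O moved in both directions: 6 of 9 fell, beside 33.5% of all genes, and 1 rose, beside 27.5%. HOXB7 was at 39.9, 40 and 43.4 TPM in WT and 63, 58.6 and 62.7 TPM in A4KO libraries (0.57, adjusted p = 1.52e-04). HOXB8, beside it, was at 20.7, 20.7 and 19.8 TPM in WT and 10.1, 11.8 and 9.55 TPM in A4KO libraries (-0.90, adjusted p = 1.13e-04). The groups of both genes were separate, with A4KO above WT for HOXB7 and below it for HOXB8. HOXB13 was at 1.6, 1.55 and 1.66 TPM in WT and 0.17, 0.0923 and 0.117 TPM in A4KO libraries (-1.21, adjusted p = 3.29e-06), from a low level to near 0, and with a minimum mean of 1 TPM it is not tested. HOXB3, a gene of the hindbrain and thyroid, was at 34.4, 33.1 and 34.2 TPM in WT and 17.1, 17.2 and 15 TPM in A4KO libraries (-1.004, adjusted p = 2.59e-05). Its groups were far apart, but it sits at the study's fold threshold and missed it without WT replicate 1 (-0.99), WT replicate 3 (-0.998) or A4KO replicate 3 (-0.94), and under quantile normalization and centring on the median. HOXB2, HOXB5 and HOXB6 fell 1.38-, 1.55- and 1.42-fold (adjusted p = 1.38e-04, 8.55e-04 and 1.67e-04). HOXB4 overlapped (9.29 ± 0.518 and 9.37 ± 0.253 TPM), and HOXB9 was lower in all A4KO libraries without passing (-0.12, adjusted p = 0.0576; 0.027 without A4KO replicate 2, 0.0454 with the trend and robust options of eBayes and 0.0479 with a minimum mean of 1 TPM). HOXB5 to HOXB9 together were at 139.8, 140.1 and 143 TPM in WT and 135, 136 and 133 TPM in A4KO libraries.

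In the HOXC cluster of 786O, 6 of 7 listed genes fell, beside 33.5% of all genes, with a median log2 fold change of -0.42. HOXC10 was at 31.1, 30.2 and 36.7 TPM in WT and 17.8, 17.5 and 16.8 TPM in A4KO libraries (-0.87, adjusted p = 1.44e-04). HOXC11, another kidney gene, was at 1.2, 0.969 and 0.932 TPM in WT and 0.233, 0.29 and 0.232 TPM in A4KO libraries (-0.70, adjusted p = 1.11e-04). Both had separate groups, and HOXC11 was much the scarcer RNA. HOXC8, HOXC4 and HOXC6 fell 1.95-, 1.38- and 1.21-fold (adjusted p = 8.76e-05, 3.95e-04 and 0.00681), HOXC6 not under quantile normalization (0.0906). HOXC5 was under 1 TPM and its fall (adjusted p = 0.0368) ended without WT replicate 2 or 3 or A4KO replicate 1 or 2 (adjusted p 0.0672 to 0.105), under quantile normalization (0.111) and under centring on the median (0.0733). HOXC9 overlapped (-0.14) and passed without A4KO replicate 1 (adjusted p = 0.0259).

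In the HOXD cluster of 786O, 6 of 8 genes fell, beside 33.5% of all genes, with a median of -0.44. HOXD9 was at 13.3, 13.5 and 13.3 TPM in WT and 7.35, 7.32 and 7.21 TPM in A4KO libraries (-0.79, adjusted p = 5.91e-06). The libraries of each genotype lay within a narrow band, far from those of the other. HOXD10 and HOXD11, which share exon bases, fell together from 36.3 ± 2.92 to 25.6 ± 1.49 TPM and from 21.3 ± 1.36 to 14.7 ± 0.63 TPM (adjusted p = 0.00133 and 4.24e-04). HOXD4, HOXD3 and HOXD1 fell 1.49-, 1.35- and 1.33-fold (adjusted p = 0.00439, 0.00125 and 0.00718), HOXD1 not under quantile normalization (0.34). HOXD8 (10.2 ± 0.451 and 9.98 ± 1.19 TPM) and HOXD12 (0.126 ± 0.0651 and 0.0988 ± 0.0271 TPM) overlapped. In the 786O plot of HOX genes, A4KO symbols lie under WT symbols across most paralogue numbers, with HOXB7 above.

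**Figure D4:**
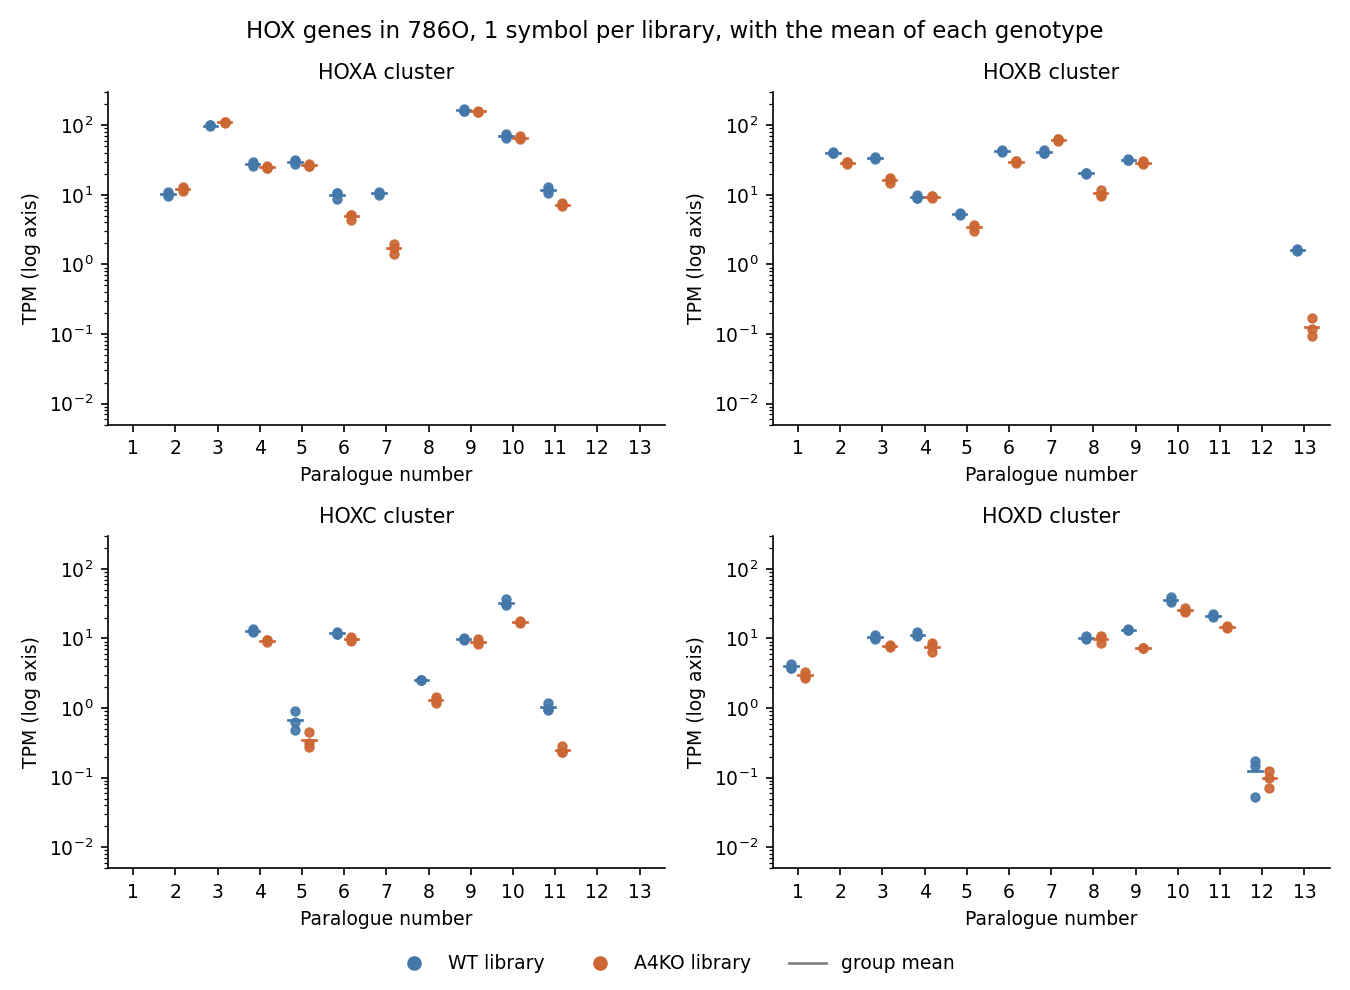
TPM (log axis) of HOX genes in every 786O library by paralogue number, with 1 panel per cluster, WT (3 libraries) in blue, A4KO (3 libraries) in orange and a bar at each group mean. HOXA7 goes from a mean of 10.6 TPM in WT to 1.71 TPM in A4KO libraries and HOXB13 from 1.6 to 0.126 TPM.

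The lines share no libraries, so their results for the 34 genes listed in both can be set against each other. Lower in both lines were 11 of 34 genes: HOXA4, HOXB2, HOXB3, HOXB5, HOXB6, HOXB8, HOXC6, HOXC8, HOXC10, HOXC11 and HOXD4. Of all genes listed in both tables, 7.08% were lower in both. HOXB7 fell in CAKi-1 and rose in 786O, and HOXD1 and HOXD9 rose in CAKi-1 and fell in 786O. HOXB4 and HOXB9 fell and HOXD8 rose in CAKi-1 but did not pass in 786O. HOXA2 and HOXA3 rose and 9 genes fell in 786O (HOXA6, HOXA7, HOXA11, HOXB13, HOXC4, HOXC5, HOXD3, HOXD10 and HOXD11) but did not pass in CAKi-1. Neither line passed for 5 genes (HOXA5, HOXA9, HOXA10, HOXC9 and HOXD12). Whether a log2 fold change differs between the lines was tested by the interaction of line and genotype over 15247 genes listed in both. It passed for 17 of 34 HOX genes (50%), beside 55.1% of all genes, a share near the background, so it says nothing about HOX genes as a group. Without CAKi-1 A4KO replicates 1 and 4 it passed for 20, all 17 among them, with HOXA3, HOXB2 and HOXB3 added. Over all genes that fit passed 4667 with a positive and 4408 with a negative difference, beside 4398 and 4006 with all libraries. The count thus grew over all genes too, and the 20 say nothing about HOX genes as a group either.

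For single genes, the difference (CAKi-1 log2 fold change minus that of 786O) was -1.55 for HOXB7 (adjusted p = 3.03e-08), -1.46 for HOXB6 (adjusted p = 3.88e-05), -1.45 for HOXB8 (adjusted p = 8.78e-05), -1.06 for HOXB9 (adjusted p = 2.58e-05) and -1.04 for HOXB5 (adjusted p = 4.10e-05). These 5 HOXB genes, grouped after their CAKi-1 values were seen, were lower in CAKi-1 relative to 786O, as were HOXB4 (-0.59), HOXC6 (-0.62) and HOXC8 (-0.32). In the other direction, the difference was 2.16 for HOXA7 (adjusted p = 2.19e-07), 1.33 for HOXB13 (adjusted p = 1.97e-07) and 1.29 for HOXD9 (adjusted p = 5.96e-07). HOXA6 (0.94), HOXA11 (0.86), HOXD1 (0.76), HOXC5 (0.31) and HOXD8 (0.26) passed on that side too. Of these, HOXC5 (adjusted p = 0.0493) no longer passed when CAKi-1 WT replicate 3 or 4, CAKi-1 A4KO replicate 2, 3, 4 or 5, 786O WT replicate 2 or 3, or 786O A4KO replicate 1 or 2 was left out (adjusted p 0.051 to 0.15), nor with log2(TPM + 0.1) (0.151), quantile normalization (0.187) or centring on the median (0.0866). HOXD8 (adjusted p = 0.0298) no longer passed without 786O WT replicate 2 or 786O A4KO replicate 1 (adjusted p 0.080 to 0.0823), under quantile normalization (0.09, adjusted p = 0.46) or with a replicate block (0.0566). HOXC8 (adjusted p = 0.00222) passed with each library left out in turn but not with log2(TPM + 0.1) (0.427), a scale on which HOXC11 did (7.30e-05). The calls of HOXC5 and HOXD8 are thus near the threshold, and that of HOXC8 turns on the scale. HOXB3 passed without CAKi-1 A4KO replicate 2, 3 or 5 (adjusted p 0.0266 to 0.0435), HOXC11 without CAKi-1 WT replicate 4 or A4KO replicate 2 (0.0279 to 0.0439), HOXD11 without CAKi-1 WT replicate 4 or A4KO replicate 5 (0.0221 to 0.033) and HOXD4 without CAKi-1 WT replicate 2 or 786O A4KO replicate 2 (0.0255 to 0.0491). HOXB3 also passed with a minimum mean of 1 TPM (0.0479), and HOXA2 passed under quantile normalization (-0.35, adjusted p = 0.0153). The plot of log2 fold changes shows symbols of the lines far apart at HOXA7, at HOXB5 to HOXB9 and at HOXD9. Among these, the symbols of HOXA7 in CAKi-1 (adjusted p = 0.743 by limma) and HOXB9 in 786O (adjusted p = 0.0576) are open.

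**Figure D5:**
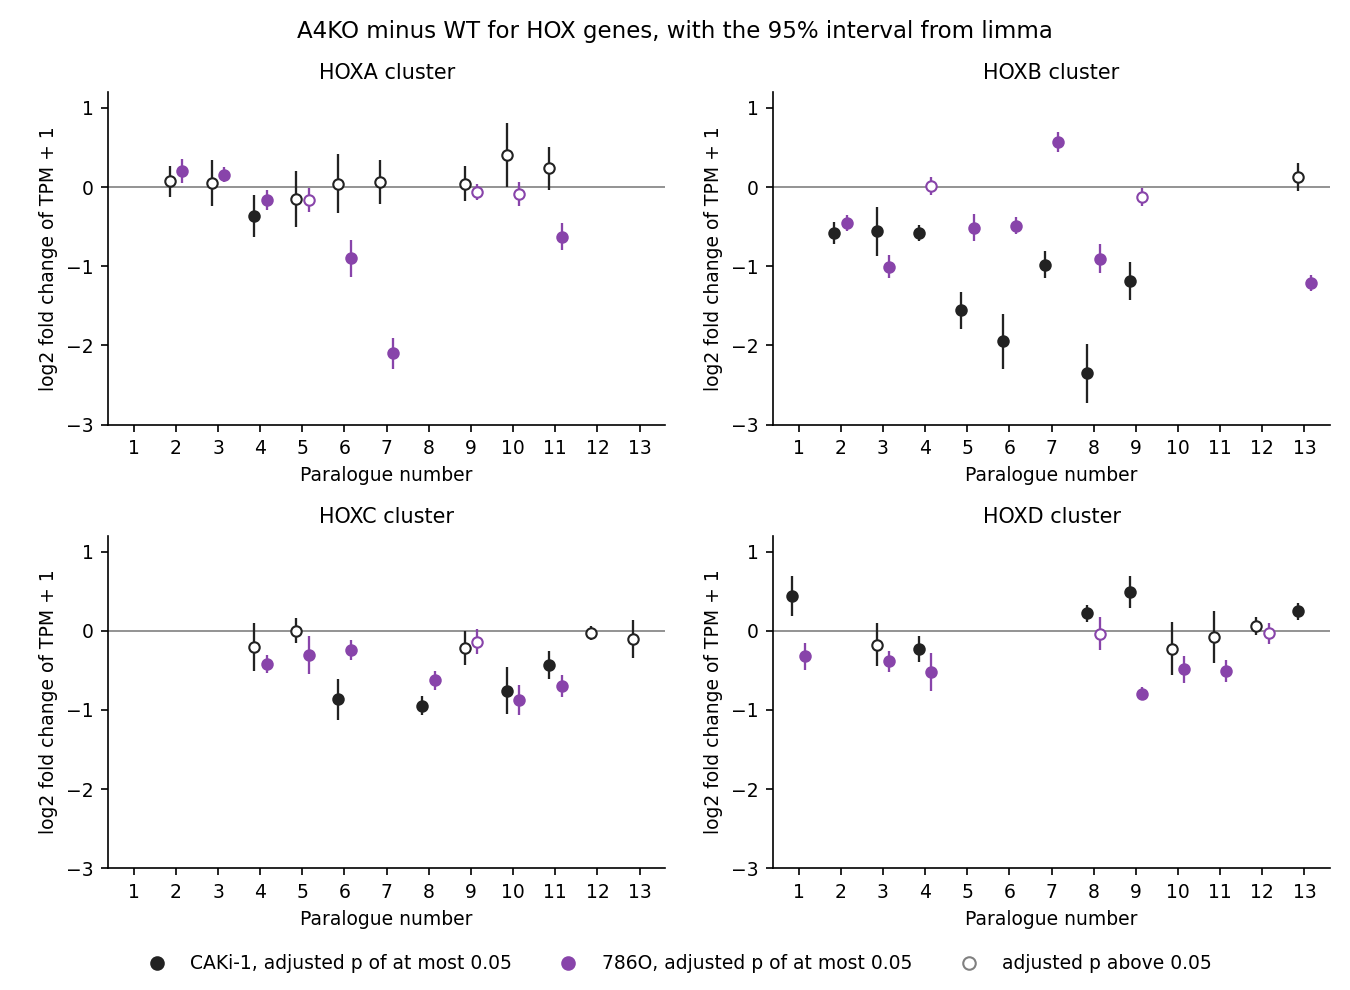
Log2 fold change of TPM + 1 (A4KO minus WT) of HOX genes by paralogue number in CAKi-1 (black) and 786O (purple), with the 95% interval from limma, 1 panel per cluster and filled symbols for an adjusted p of at most 0.05. HOXB8 of CAKi-1 (-2.35) and HOXA7 of 786O (-2.10) are the lowest, and HOXB7 lies on opposite sides of 0 in the lines.

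By paralogue number, genes 4 to 8 fell in 9 of 15 cases in CAKi-1 (median -0.36) and 11 of 15 in 786O (median -0.42). Genes 1 to 3 fell in 3 of 7 (median -0.18) and 4 of 7 (median -0.32), and genes 9 to 13 in 3 of 15 (median -0.03) in CAKi-1 and 7 of 12 (median -0.50) in 786O. Of all genes 21.1% fell in CAKi-1 and 33.5% in 786O, so the count of genes 9 to 13 in CAKi-1 is near the background. The libraries of the genotypes were separate, with A4KO lower, for 13 of 37 genes in CAKi-1 and 23 of 34 in 786O, and with A4KO higher for 4 and 3. Over all genes the same held, with A4KO lower, for 19.8% and 36.8%, and with A4KO higher for 16.1% and 30.1%.

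Of the HOX cofactors of the TALE class, all 9 looked up are listed in both tables. In CAKi-1, 4 rose and 0 fell by limma (5 and 1 at an unadjusted p under 0.05), with a median log2 fold change of 0.27. In 786O, 1 rose and 3 fell, with a median of -0.21. The shares that rose and fell were 44.4% and 0% in CAKi-1, beside 17.9% and 21.1% of all genes, and 11.1% and 33.3% in 786O, beside 27.5% and 33.5% of all genes. With 9 genes these shares rest on few members. PBX3, a dimer partner of HOX proteins, was at 30.1, 30.6 and 33.1 TPM in 786O WT and 65.2, 68.2 and 70.5 TPM in A4KO libraries (1.097, adjusted p = 1.10e-05), with separate groups, and the study's rule calls it. PBX4, looked at after its values were seen, fell in 786O from 5.41 ± 0.252 to 2.21 ± 0.216 TPM, 2.45-fold, and just missed the study's fold threshold (log2 fold change -0.999949, adjusted p = 2.82e-05). In CAKi-1 PBX3 was at 17.3 ± 0.966 TPM in WT and 14.8 ± 1.59 TPM in A4KO libraries (adjusted p = 0.0529). PBX2 rose in CAKi-1, from 47.3 ± 2.17 to 60.4 ± 6.48 TPM (adjusted p = 0.00865), and fell in 786O, from 31.6 ± 0.974 to 26.2 ± 1.04 TPM (adjusted p = 0.0027). MEIS3, picked after its values were seen, did likewise, from 3.94 ± 0.60 to 9.24 ± 3.32 TPM in CAKi-1 (adjusted p = 0.00661) and from 7.78 ± 0.341 to 4.5 ± 0.326 TPM in 786O (adjusted p = 1.13e-04). Without CAKi-1 WT replicate 4, 2 cofactors rose in CAKi-1 and 1 fell, beside 2469 and 3042 of all 16296 genes. Without CAKi-1 A4KO replicate 5, 1 cofactor fell, beside 3491 of all genes. Without 786O WT replicate 1, 2 rose in 786O, beside 4222 of all 16188 genes.

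Of 29 Polycomb genes, all listed in both tables, 7 rose and 5 fell in CAKi-1 (median 0.07) and 8 rose and 8 fell in 786O (median 0.04). The shares that rose and fell were 24.1% and 17.2% in CAKi-1, beside 17.9% and 21.1% of all genes, and 27.6% and 27.6% in 786O, beside 27.5% and 33.5% of all genes. These shares are near the background and are no result about the list. The most abundant were the histone-binding subunits RBBP7 (174 ± 1.84 and 174 ± 9.46 TPM in CAKi-1 WT and A4KO, 144 ± 3.56 and 141 ± 2.56 TPM in 786O), which did not pass in either line, and RBBP4. RBBP4 did not pass in CAKi-1 (0.04, adjusted p = 0.751) and rose in 786O from 170.0 ± 7.93 to 215 ± 7.61 TPM (adjusted p = 0.00133). EZH2, the H3K27 methyltransferase, and its partner EED were looked at after their values were seen. EZH2 was at 42.3, 42.6, 42.8 and 45.9 TPM in CAKi-1 WT and 25.9, 36, 40.3, 25.1 and 38.2 TPM in A4KO libraries (-0.41, adjusted p = 0.0497), with A4KO replicates 1 and 4 far below the rest. Without those its log2 fold change was -0.18 (adjusted p = 0.034), and that of EED went from -0.45 to -0.25. In 786O EZH2 rose from 45.4 ± 0.0888 to 63.9 ± 1.47 TPM (adjusted p = 5.52e-05). Without replicates 1 and 4, 8 Polycomb genes fell and 8 rose in CAKi-1, beside 3613 and 2714 of all 16296 genes. Without WT replicate 1 or WT replicate 2, 3 fell, beside 2777 and 2651 of all genes. In 786O, 5 rose without WT replicate 3, A4KO replicate 1 or A4KO replicate 3, beside 4107 to 4183 of all 16188 genes.

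MLL complex genes and H3K27 demethylases, 13 in both tables, gave 1 rise and 3 falls in CAKi-1 (median -0.10) and 3 rises and 4 falls in 786O (median -0.05). The shares that rose and fell were 7.69% and 23.1% in CAKi-1, beside 17.9% and 21.1% of all genes, and 23.1% and 30.8% in 786O, beside 27.5% and 33.5% of all genes. With 13 genes these shares rest on few members. DPY30, a core subunit of MLL complexes, rose in both lines, from 96.3 ± 4.9 to 114 ± 4.12 TPM in CAKi-1 (adjusted p = 0.00616) and from 97.2 ± 8.44 to 117 ± 3.99 TPM in 786O (adjusted p = 0.0148). PSIP1, which tethers MLL to chromatin, did not pass in CAKi-1 (adjusted p = 0.819) and fell in 786O from 92.9 ± 1.73 to 82.6 ± 0.252 TPM (adjusted p = 0.00527). Without CAKi-1 A4KO replicate 3, 2 genes of this list rose in that line, beside 2970 of all 16296 genes. Of other regulators, CDX1, CDX2 and CDX4, which activate HOX genes in the embryo, are not listed. CTCF, which insulates domains of the clusters, did not pass in CAKi-1 (adjusted p = 0.0844) and rose in 786O from 31.2 ± 0.928 to 36.4 ± 0.899 TPM (adjusted p = 0.00379). GMNN, encoding geminin, a protein of replication licensing that also binds HOX proteins, was at 72, 72.7, 73.8 and 71.6 TPM in CAKi-1 WT and 30.1, 54, 58.4, 29.5 and 51.2 TPM in A4KO libraries (-0.75, adjusted p = 0.0199). A4KO replicates 1 and 4 were the lowest, and without them the log2 fold change was -0.41 (adjusted p = 9.87e-04). Without CAKi-1 A4KO replicate 3, both CTCF and GMNN fell, and in 786O GMNN did not pass (adjusted p = 0.241).

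Retinoic acid genes gave 3 rises and 3 falls among 16 listed in CAKi-1 (median 0.01) and 3 rises and 5 falls among 11 in 786O (median 0.10). The shares that rose and fell were 18.8% and 18.8% in CAKi-1, beside 17.9% and 21.1% of all genes, and 27.3% and 45.5% in 786O, beside 27.5% and 33.5% of all genes. In CAKi-1 these shares are near the background. ALDH1A1, which makes retinoic acid from retinal, was at 76.7, 74.1 and 75.6 TPM in 786O WT and 435, 449 and 446 TPM in A4KO libraries (2.54, adjusted p = 1.64e-07). In CAKi-1 it was at 191, 146, 153 and 117 TPM in WT and 70.7, 77.5, 86, 70.4 and 77.6 TPM in A4KO libraries (-0.96, adjusted p = 4.62e-04). It thus rose in 786O and fell in CAKi-1, each time with separate groups. RXRB, a retinoid X receptor, went the other way, from 26.5 ± 0.594 to 33.8 ± 3.69 TPM in CAKi-1 (adjusted p = 0.00857) and from 33.7 ± 0.38 to 24.6 ± 1.07 TPM in 786O (adjusted p = 2.02e-04). DHRS3, which turns retinal back to retinol, fell in 786O from 62.9 ± 1.17 to 45.7 ± 0.955 TPM (adjusted p = 8.86e-05) and did not pass in CAKi-1 (-0.57, adjusted p = 0.191) unless A4KO replicates 1 and 4 were left out (-1.03, adjusted p = 0.00761). Without CAKi-1 WT replicate 2, 3 or 4 or A4KO replicate 1, 1 gene of the list rose in CAKi-1, beside 2297 to 2537 of all 16296 genes. Without 786O WT replicate 1 or 3 or A4KO replicate 1 or 3, 3 fell in 786O, beside 4929 to 5066 of all 16188 genes.

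Protein-coding neighbours of the clusters gave 2 rises and 4 falls among 18 listed in CAKi-1 (median -0.11) and 6 rises and 6 falls among 19 in 786O (median 0.08). The shares that rose and fell were 11.1% and 22.2% in CAKi-1, beside 17.9% and 21.1% of all genes, and 31.6% and 31.6% in 786O, beside 27.5% and 33.5% of all genes. These shares are near the background. By the study's rule 0 neighbours were called in either line by limma. With no fold threshold, 10 in CAKi-1 and 12 in 786O had an unadjusted p under 0.05. HNRNPA1, an RNA-binding protein gene 224.2 kb from HOXC, did not pass in CAKi-1 (0.04, adjusted p = 0.584) and rose in 786O from 924 ± 21.6 to 1183 ± 26.6 TPM (adjusted p = 3.17e-04). ATP5MC3, an ATP synthase subunit gene 911 kb from HOXD, did the same (-0.19, adjusted p = 0.196, and 0.16, adjusted p = 0.00921). Beside HOXB, TTLL6 (33.5 kb), CALCOCO2 (102.3 kb) and SNX11 (404.9 kb) were looked at after the HOXB values were seen. In CAKi-1 none of these 3 passed (-0.29, 0.14 and 0.01, adjusted p = 0.0982, 0.212 and 0.917), and TTLL6 was under 3 TPM in every library. Without A4KO replicates 1 and 4, TTLL6 fell (-0.43, adjusted p = 0.0111), and it fell in 786O (-0.32, adjusted p = 0.0424), where SNX11 rose (0.35, adjusted p = 8.11e-04) and CALCOCO2 did not pass (0.04, adjusted p = 0.47). SKAP1, 98.3 kb from HOXB and not listed in CAKi-1, fell in 786O (-0.37, adjusted p = 0.00136) and was also looked at after its values were seen. PRAC1 and PRAC2, which lie inside the HOXB cluster, are not listed. Without CAKi-1 WT replicate 2, 1 neighbour rose in that line, beside 2308 of all 16296 genes.

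Markers of the labelled cell type were present. Of 13 tubule and clear cell carcinoma markers, 11 are listed in CAKi-1 (3 rose, 4 fell) and 13 in 786O (4 rose, 9 fell), and the intermediate filament gene VIM was the most abundant. In CAKi-1 27.3% rose and 36.4% fell, beside 17.9% and 21.1% of all genes. In 786O 30.8% rose and 69.2% fell, beside 27.5% and 33.5% of all genes. The summed level of these markers was 6393, 6241, 5927 and 5318 TPM in CAKi-1 WT and 2805, 3653, 3734, 2961 and 3484 TPM in A4KO libraries, and 6074, 5864 and 5886 TPM in 786O WT and 4413, 4397 and 4446 TPM in A4KO libraries. It was thus lower in A4KO cells of both lines, and in CAKi-1 lowest in A4KO replicates 1 and 4. PAX2, a kidney lineage factor, and CA9, a hypoxia target, are not listed in CAKi-1.

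Of 6 fibroblast markers 5 are listed, and 1 rose and 1 fell in each line. These are 20% each way, beside 17.9% and 21.1% of all genes in CAKi-1 and 27.5% and 33.5% in 786O. With 5 genes these shares rest on few members. The markers summed to 33.7, 30.3, 27.5 and 24.3 TPM in CAKi-1 WT libraries. In CAKi-1 A4KO libraries the sums were 59.9, 53.1, 53.2, 72.6 and 48.1 TPM, mostly from the collagen gene COL1A1. In 786O they were 14.2, 10.3 and 11.8 TPM in WT and 10.1, 11.5 and 8.97 TPM in A4KO libraries. Every A4KO sum of CAKi-1 was above every WT sum, and those of 786O overlapped. Single markers of 786O nevertheless had log2 fold changes from -1.964 to 1.998, and the study's rule called 1 higher and 1 lower. Immune markers (3 of 5 listed in CAKi-1, 2 in 786O), nearly all from the lysosomal gene CD68, summed to 55.9, 55.6, 59.6 and 59.8 TPM in CAKi-1 WT and 59, 53.6, 51.1, 60.4 and 49.6 TPM in A4KO libraries, and to 43.8, 42.6 and 43.4 TPM in 786O WT and 19.6, 21.2 and 20.6 TPM in A4KO libraries. By limma 0 of 3 passed in CAKi-1 (0 at an unadjusted p under 0.05), CD68 was lower there without A4KO replicates 1 and 4 (-0.16, adjusted p = 0.0376), and CD68 fell in 786O (adjusted p = 5.73e-06). Of 4 endothelial markers PECAM1 is the listed one, at 0.209, 0.315, 0.555 and 0.361 TPM in CAKi-1 WT and 6.17, 1.97, 1.54, 4.46 and 2.32 TPM in A4KO libraries, and at 0.97, 0.85 and 1.44 TPM in 786O WT and 0.411, 0.538 and 0.563 TPM in A4KO libraries. It rose in CAKi-1 (adjusted p = 0.00274), with the highest values in A4KO replicates 1 and 4, and fell in 786O (adjusted p = 0.0104). CD3E, CDH5, VWF, KDR and COL3A1 are not listed in either line. The part of these shifts in the HOX values was not tested.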

How the data were processed

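RNA of 15 cell line libraries was measured by poly(A) RNA-seq. The authors quantified reads with Kallisto against hg38, and the deposited values, from one table per line, are taken as TPM. The tables name no unit; this follows from the use of Kallisto and from the library sums. Groups follow the labels. Members and lists were chosen with earlier results of these data known. TPM were transformed to log2(TPM + 1) and tested over all genes of a line with limma 3.58.1 (R 4.3.3), with a two-sided test and p adjusted across the line's whole table (Benjamini-Hochberg); the lines were compared by the interaction of line and genotype on shared genes. A simulated data set was used to test the code. Genes named are HOX genes (some withheld results are not reported here), ANGPTL4, and of the lists of cofactors, regulators, retinoic acid genes and neighbours the members called by the study's rule in a line and the 2 with the highest WT mean in each line; others are marked as chosen after their values were seen. Alternatives were a pseudocount of 0.1, a minimum mean of 1 TPM, quantile normalization, rescaling, centring, another eBayes setting, a replicate block, leaving out each library, and leaving out CAKi-1 A4KO replicates 1 and 4. Sums, positions and promoters were taken with Python 3.11.15. No library was left out of the reported values.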

Additional observations from a re-analysis of the deposited data

Results flagged for a closer look

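In 3 CAKi-1 groups of HOX values, 1 library lay far from the others of its group: HOXB3 in WT replicate 4 (14.9 TPM, lowest of its group), HOXB5 in WT replicate 1 (8.63 TPM, highest) and HOXD10 in WT replicate 4 (6.48 TPM, highest). Of 76 CAKi-1 groups tested this way, WT and A4KO of the HOX genes and of ANGPTL4, 3 stood out, and chance gives about 1 in 20 groups.

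The effect of the genotype differed between the lines by the interaction test for 17 HOX genes, which is near the share over all genes. CAKi-1 log2 fold changes were lower than those of 786O for genes such as HOXB7 (-1.55), HOXB6 (-1.46), HOXB8 (-1.45), HOXB9 (-1.06), HOXB5 (-1.04), HOXC6 (-0.62), HOXB4 (-0.59) and HOXC8 (-0.32), and higher for HOXA7 (2.16), HOXB13 (1.33), HOXD9 (1.29), HOXA6 (0.94), HOXA11 (0.86), HOXD1 (0.76), HOXC5 (0.31) and HOXD8 (0.26). With log2(TPM + 0.1) the difference of HOXC8 was -0.09 and did not pass by limma (adjusted p = 0.427). The calls of HOXC5 and HOXD8 ended when some single libraries were left out.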

How the results depend on the processing

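The 7 counts of HOX genes stayed within 1.5 times their reported value in 111 of the cases tried and moved further in 2. With log2(TPM + 0.1) the study's rule called 6 HOX genes in CAKi-1, with HOXB7 and HOXC8 added. With log2(TPM + 0.1) the study's rule called 5 HOX genes in 786O, where small values weigh more, and after quantile normalization 5 rose in 786O; the cause of the latter was not tested. With the trend and robust options of eBayes 24 fell in 786O, HOXA5 and HOXB9 added. Sums over clusters, or over all HOX genes, moved by less than the SD of their group in 88 cases and by more in 7, all of 786O with TPM rescaled to a constant total, which raised the sums of both genotypes. Of single-gene log2 fold changes, 982 kept their direction and side of the threshold, 36 no longer passed, 15 newly passed and 30 changed sign. For differences between the lines these were 732, 18, 17 and 11. No result that changed sign passed in the reported fit, and the cause was not tested.

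Sign changes of the log2 fold change under quantile normalization were seen for HOXA2 (-0.027), HOXA6 (-0.037), HOXA7 (-0.022) and HOXC5 (-0.0057) in CAKi-1 and HOXC9 (0.0016) and HOXD8 (0.093) in 786O, and of the difference between lines for HOXA5 (-0.011). With values centred on the median they were seen for HOXD12 (0.0069) and HOXD8 (0.0038) in 786O and, for the difference, HOXA5 (-0.016). Without CAKi-1 A4KO replicates 1 and 4 they were seen for HOXA3 (-0.12), HOXA6 (-0.19), HOXA7 (-0.094) and HOXA9 (-0.10) in CAKi-1 and, for the difference, HOXA5 (-0.21), HOXA9 (-0.036) and HOXC10 (-0.056). Over leaving out 1 library at a time the log2 fold changes of such genes ranged, in CAKi-1, for HOXA3 (-0.016 to 0.12), HOXA6 (-0.057 to 0.15), HOXA7 (-0.021 to 0.13), HOXA9 (-0.024 to 0.095), HOXC5 (-0.041 to 0.038) and HOXD11 (-0.17 to 0.012), in 786O for HOXB4 (-0.016 to 0.053) and HOXD8 (-0.10 to 0.055), and the difference for HOXA5 (-0.076 to 0.10).

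A replicate block, with libraries paired by replicate number, gave 4 HOX genes called in CAKi-1, 13 lower (without HOXA4 and HOXD4) and 4 higher, and in 786O 3 called, 21 lower (without HOXA4) and 2 higher (without HOXA2), with 18 differences between the lines (without HOXD8, and with HOXA10 and HOXD4 added); HOXC5 (-0.0025) and HOXD11 (0.0073) of CAKi-1 changed sign. WT and A4KO libraries of the same number correlated at -0.05, 0.11, -0.03 and 0.12 in CAKi-1 and -0.03, 0.02 and 0.01 in 786O over all genes after group means were removed. Those of different number correlated at -0.16 to 0.15 in CAKi-1 and -0.03 to 0.03 in 786O. The same-number values lie within these ranges, so they do not show pairing by number and cannot exclude it. A4KO replicate 5 of CAKi-1 has no partner and drops out of this fit. With a minimum mean of 1 TPM, 33 HOX genes in CAKi-1 and 30 in 786O were tested. Count models were not run, since the values are not counts, and the reads behind each value are not in the tables.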
